A study of Mus musculus with 6 samples.

Results

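The mRNAs of the mitochondrial carrier family Slc25 were followed in fetal hepatocytes with and without Cnot3. Members were all genes whose symbol in the platform annotation is Slc25a followed by a number, which gave 44 of 18193 annotated genes. Each was represented by its brightest probe set that names no other gene. Hepatocytes were prepared from livers of E16.5 embryos, either control embryos, given as wild type in the labels, or Cnot3KO embryos, in which Cre recombinase driven by the albumin promoter deletes Cnot3 in the hepatic lineage. Both genotypes were cultured with oncostatin M and dexamethasone and were then kept for 0, 6 or 12 h with actinomycin D (ActD), an inhibitor of transcription. Total RNA of each of the 6 combinations was hybridized to 1 expression array. The study describes the deletion as incomplete in the fetal liver and as efficient after culture, and how many embryos supplied each culture is not given in the sources used here. Whether the control embryos carried the Cre transgene or the floxed allele is likewise not given in the labels. The study's controls had floxed Cnot3 alleles without Cre, or Cre with at most 1 floxed allele. The comparisons address which carrier mRNAs differed in abundance when Cnot3 was lost, and how much of each was left once transcription had stopped.

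Slc25 carriers are proteins of the inner mitochondrial membrane that exchange or import nucleotides, phosphate, amino acids, carboxylates, carnitine esters, cofactors and metal ions. Each carrier is built from tandem repeats of a common module. In liver they link the cytosol to the urea cycle, gluconeogenesis, fatty acid oxidation and heme synthesis inside the mitochondrion. A few members depart from this plan, such as Slc25a17 in peroxisomes and Slc25a46 in the outer mitochondrial membrane. Cnot3 belongs to the Cnot complex, which removes the poly(A) tail of mRNAs as the first step of their decay.

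All values are probe set intensities on the linear scale of the deposited table, and differences are log2 values of Cnot3KO minus control. Because each array has no replicate, a difference at 1 time carries no error of its own. As a guide to technical error, the SD of a single probe set was 0.24 (log2) for the genotype difference at 0 h. It was estimated from the disagreement of the brightest and second probe sets of 4078 genes with a second bright probe set. The disagreement itself has a larger SD. Both probe sets read the same RNA on the same arrays, so this SD leaves out any error they share, such as that between cultures. The corresponding SD was 0.42 for the genotype difference in change over 12 h. The array medians were 69.7 to 72.4 and the 20th percentiles 19.7 to 22.4. A gene was tested if it exceeded the 20th percentile of at least 1 array, which 41 of the 44 members did. Slc25a2, Slc25a31 and Slc25a54 lay below it on all arrays and were not tested. Among all members, 34 exceeded the median on all 6 arrays and 7 on none. The brightest Cnot3 probe set read 296, 214 and 158 in control and 174, 174 and 146 in Cnot3KO cells at 0, 6 and 12 h, and was lower in the cells labelled Cnot3KO at each time. Its second probe set read 160, 211 and 232 in control and 155, 161 and 178 in Cnot3KO cells. Whether either lies within the deleted exons was not established.

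Before ActD, most carriers stood at a similar level in both genotypes, and those that were apart were lower in Cnot3KO cells. Slc25a16, a carrier linked to coenzyme A, Slc25a23, a calcium-regulated carrier of ATP-Mg and phosphate, and Slc25a47 and Slc25a48, both without a settled substrate, were over 1.5-fold lower. No member was over 1.5-fold higher, whereas 6.87% of all 16110 genes tested at 0 h were. The 4 lower members are 9.76% of the 41, against 2.99% of all genes. Of the members, 20 had a positive and 21 a negative difference, and 26 lay within the SD of a single probe set. The median difference was -0.05 over the members and 0.04 over all genes. No test is possible with 1 array per genotype at 0 h.

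**Figure D1:**
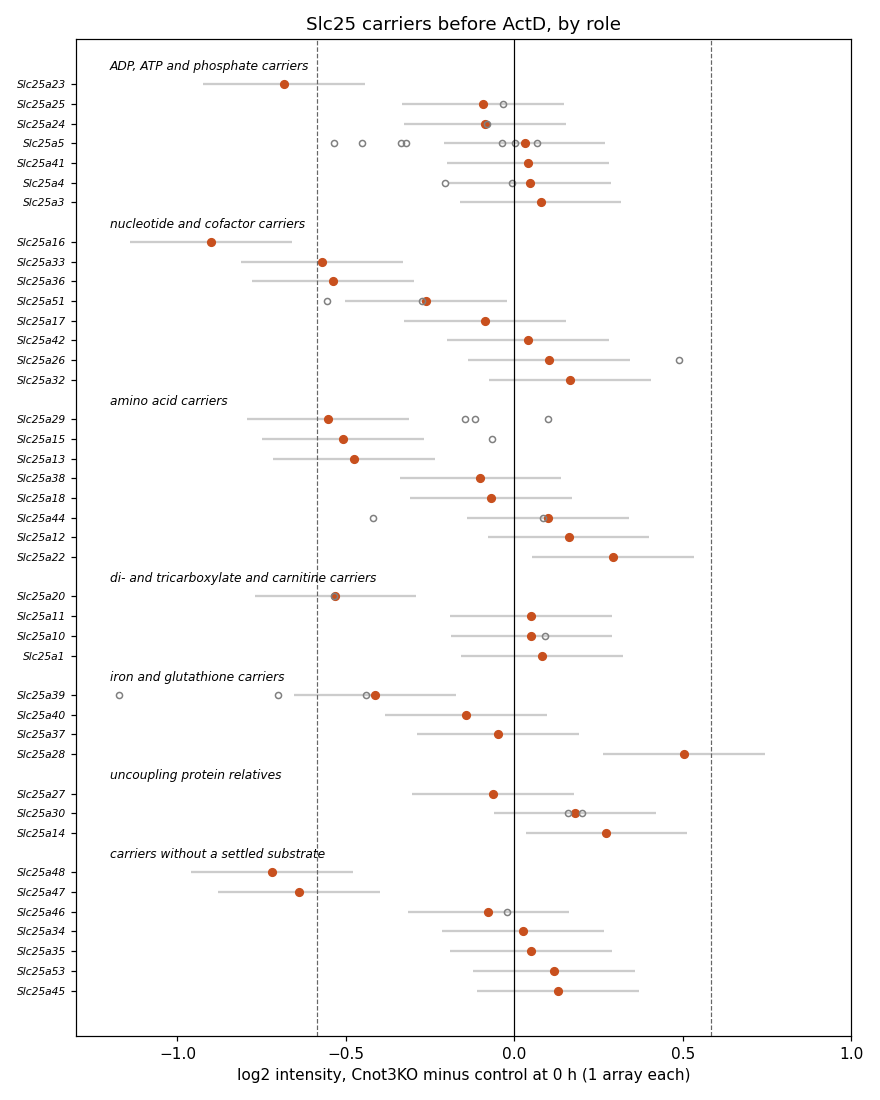
Genotype difference at 0 h for the 41 tested carriers, as log2 intensity in Cnot3KO minus control (1 array each), ordered by role. Filled points are the chosen probe sets with a bar of 0.24, the estimated SD of a single probe set. The bar leaves out error between cultures. Open circles are other probe sets above the median on all arrays, and dashed lines mark 1.5-fold. Only Slc25a16, Slc25a23, Slc25a47 and Slc25a48 lie beyond a dashed line with the chosen probe set.

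At 0, 6 and 12 h, Slc25a16 read 296, 287 and 383 in control and 159, 211 and 168 in Cnot3KO cells. The 3 Cnot3KO values lay below all 3 control values. Absence of overlap is given here and below as a description only, since the share of all genes without overlap was not counted. At 0 h the control level was 1.87-fold that of Cnot3KO cells (log2 difference -0.90), and over the 3 times the difference was -0.84 ± 0.19 (SE). Slc25a23 read 157, 253 and 271 in control and 97.9, 126 and 105 in Cnot3KO cells. Its genotypes did not overlap either, and the distance was wider at 12 h than at 0 h. The difference was -0.68 at 0 h and -1.02 ± 0.18 (SE) over the 3 times. Slc25a48 read 384, 436 and 283 in control and 233, 224 and 203 in Cnot3KO cells, again without overlap. Its difference was -0.72 at 0 h and -0.72 ± 0.16 (SE) over the times. A second, dimmer probe set for Slc25a48 gave -0.40 at 0 h. Slc25a47, which is expressed mainly in liver, behaved differently. It read 553, 400 and 594 in control and 355, 551 and 719 in Cnot3KO cells, so that the genotypes crossed between 0 and 6 h. Its difference was -0.64 at 0 h and 0.03 ± 0.24 (SE) over the times.

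**Figure D2:**
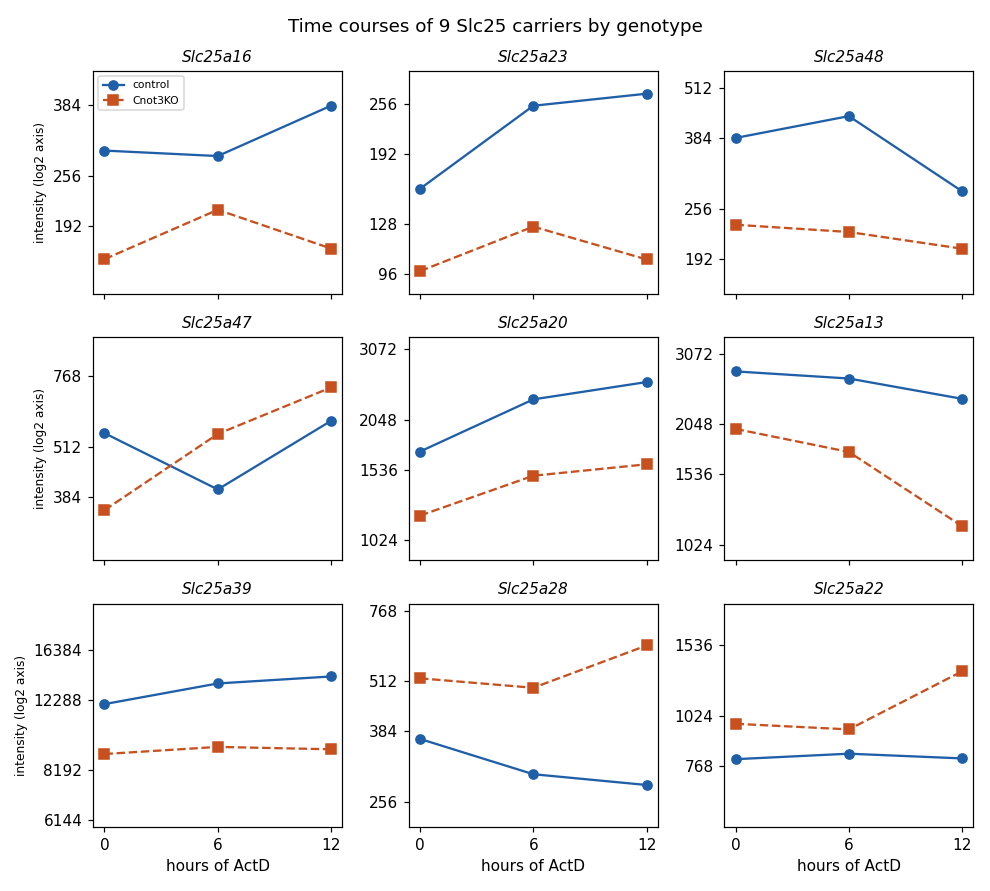
Intensity of 9 carriers (log2 axis, own range in each panel) against hours of ActD in control (circles, solid) and Cnot3KO cells (squares, dashed), 1 array per point without error bars. Slc25a16, Slc25a23, Slc25a48, Slc25a20, Slc25a13 and Slc25a39 were lower in Cnot3KO cells at all 3 times, Slc25a28 and Slc25a22 were higher at all 3, and the Slc25a47 lines cross.

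Other members that the unadjusted genotype test below lists as lower were less than 1.5-fold apart at 0 h. Slc25a13 (citrin), the aspartate/glutamate carrier of liver, read 2773, 2663 and 2369 in control and 1993, 1746 and 1139 in Cnot3KO cells. All Cnot3KO values lay below all control values, with a difference of -0.48 at 0 h and -0.71 ± 0.17 (SE) over the times. Slc25a20, the carnitine/acylcarnitine carrier that admits fatty acids for oxidation, read 1706, 2302 and 2544 in control and 1180, 1485 and 1585 in Cnot3KO cells. Its difference was -0.53 at 0 h with either of its probe sets and -0.62 ± 0.14 (SE) over the times. Slc25a15, which imports ornithine for the urea cycle, read 1674, 1392 and 1240 in control and 1176, 1140 and 947 in Cnot3KO cells. It was lower at each time, by -0.51 at 0 h and -0.40 ± 0.14 (SE) over the times, and its second bright probe set gave -0.07 at 0 h. Slc25a39, a glutathione carrier, read 11971, 13481 and 14033 in control and 8985, 9360 and 9233 in Cnot3KO cells. The difference at 0 h was -0.41, and its 3 other bright probe sets gave -0.44 to -1.17. Slc25a29, a carrier of basic amino acids that this test does not list, was at -0.55 with its chosen probe set, but its 3 other bright sets gave -0.15 to 0.10. The citrate carrier Slc25a1, the dicarboxylate carrier Slc25a10 and the oxoglutarate carrier Slc25a11 were not lower at 0 h, at 0.08, 0.05 and 0.05.

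Slc25a28 (mitoferrin 2), which imports iron, stood highest above control among the carriers at 0 h. It read 368, 300 and 282 in control and 521, 493 and 629 in Cnot3KO cells, so that every Cnot3KO value exceeded every control value. The difference was 0.50 at 0 h, a 1.42-fold higher level, and 0.79 ± 0.18 (SE) over the 3 times. Slc25a22, a glutamate carrier, read 797, 822 and 800 in control and 977, 946 and 1321 in Cnot3KO cells, also without overlap. Its difference was 0.29 at 0 h. The next largest positive differences at 0 h, of Slc25a14, Slc25a30 and Slc25a32, were 0.27, 0.18 and 0.17, within or close to the SD of a single probe set.

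Genotype was tested across the 3 times by limma, in a fit with time as a block that estimates error from the agreement of the 3 times and not from embryos. This term averages the difference at 0 h with those under ActD, so it mixes abundance with any difference in change after ActD. No member passed an adjusted p of 0.05 in either direction, against 0.703% of all 16499 genes called higher and 0.285% called lower. The adjusted p-values of the members began at 0.0526 for Slc25a23. Those of Slc25a16, Slc25a48, Slc25a28 and Slc25a20 were 0.0577, 0.0577, 0.0585 and 0.0587, and those of Slc25a13 and Slc25a39 were 0.0624 and 0.0737 by limma. At an unadjusted p below 0.05 the fit listed 7 members as lower (Slc25a13, Slc25a15, Slc25a16, Slc25a20, Slc25a23, Slc25a39 and Slc25a48), which is 17.1% against 11.0% of all genes. It listed 5 as higher (Slc25a12, Slc25a14, Slc25a28, Slc25a30 and Slc25a32), 12.2% against 22.4% of all genes. Slc25a12, Slc25a14, Slc25a30 and Slc25a32 were at 0.16 to 0.27 at 0 h but at 1.14 to 2.21 at 12 h, and Slc25a28 was at 0.50 and 1.16. Their listing is therefore not separate from the changes after ActD given below. Without the 0 h arrays, 6 members passed the adjusted threshold as lower and 8 as higher, and the 6 lower were those 7 without Slc25a15. These are 14.6% and 19.5% of the members, against 10.9% and 24.3% of all genes in the same fit, so that the 14 together (34.1%) match the share of all genes (35.2%).

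Markers of other cell types differed between the same arrays. In bulk RNA, fewer cells of a type and less RNA per cell cannot be told apart. The summed intensity of 8 hepatocyte markers was 160221 to 176170 in control and 162074 to 170017 in Cnot3KO cells, and none was over 1.5-fold apart at 0 h. This sum is made up mostly of the very bright probe sets of Alb, Afp, Ttr, Fgb and Apoa1, and whether these are near saturation was not tested. Among the less bright markers, Ahsg was at -0.54 and Hnf4a at 0.52 over the 3 times, with adjusted p-values of 0.0843 and 0.0788 by limma. Of 11 macrophage markers 5 were over 1.5-fold lower at 0 h, with sums of 18759 to 22884 in control and 15383 to 17654 in Cnot3KO cells. Cd68 and Clec4f of this list were at 0.20 and 0.08. Of 9 endothelial markers 2 were lower (sums of 904 to 1807 against 545 to 1187), as were 2 of 11 erythroid markers (807 to 915 against 706 to 739). Of 9 tested stellate cell and fibroblast markers 1 was lower (17730 to 19177 against 8885 to 13999), while Lrat lay below the 20th percentile on all arrays. Of 7 tested cholangiocyte markers 5 were higher, among them Krt19, with sums of 20026 to 23653 in control and 35859 to 43699 in Cnot3KO cells. At 0 h Sox9 went the other way, at -0.28, and Krt7 was at 0.45. Cftr was below the 20th percentile on all arrays. In limma's genotype test Cd163, Vsig4 and Mrc1 passed as lower and Cldn4, Cldn6 and Cldn7 as higher, at adjusted p-values of 0.04987 to 0.04998. Over all genes 0.285% passed as lower and 0.703% as higher. These calls were lost in the alternatives given below that called 0 genes. Over 12 h of ActD, 8 of the 9 stellate cell and fibroblast markers had an over 1.5-fold more negative change in Cnot3KO cells, against 12.3% of all genes. The part of these cell types in the carrier differences was not tested.

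After 12 h of ActD, 9 carriers were over 1.5-fold lower than at 0 h in control cells, which is 22.0% of the members and close to the 23.2% of all genes. They were Slc25a12, Slc25a14, Slc25a30, Slc25a32, Slc25a33, Slc25a36, Slc25a37, Slc25a40 and Slc25a46. In Cnot3KO cells 3 carriers were over 1.5-fold lower (Slc25a13, Slc25a33 and Slc25a37), 7.32% against 10.5% of all genes. Because the arrays were normalised to each other, each change is measured against the other mRNAs, and a decrease common to all of them would not appear. The median change over 12 h was 0.01 over the members and 0.15 over all genes in control cells, and 0.11 and 0.08 in Cnot3KO cells.

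All 9 carriers kept a larger share of their 0 h level in Cnot3KO than in control cells, by over 1.5-fold at 12 h and with the same sign at 6 h. The same control arrays chose these 9, which favours a larger share in the other genotype for any gene. The changes over 6 and 12 h also start from the same 0 h arrays, which favours the same sign at both. Among all 3827 genes chosen in the same way 74.0% were over 1.5-fold better kept in Cnot3KO cells, and the median difference in change was 0.99 for them and 1.13 for the 9 carriers.

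**Figure D3:**
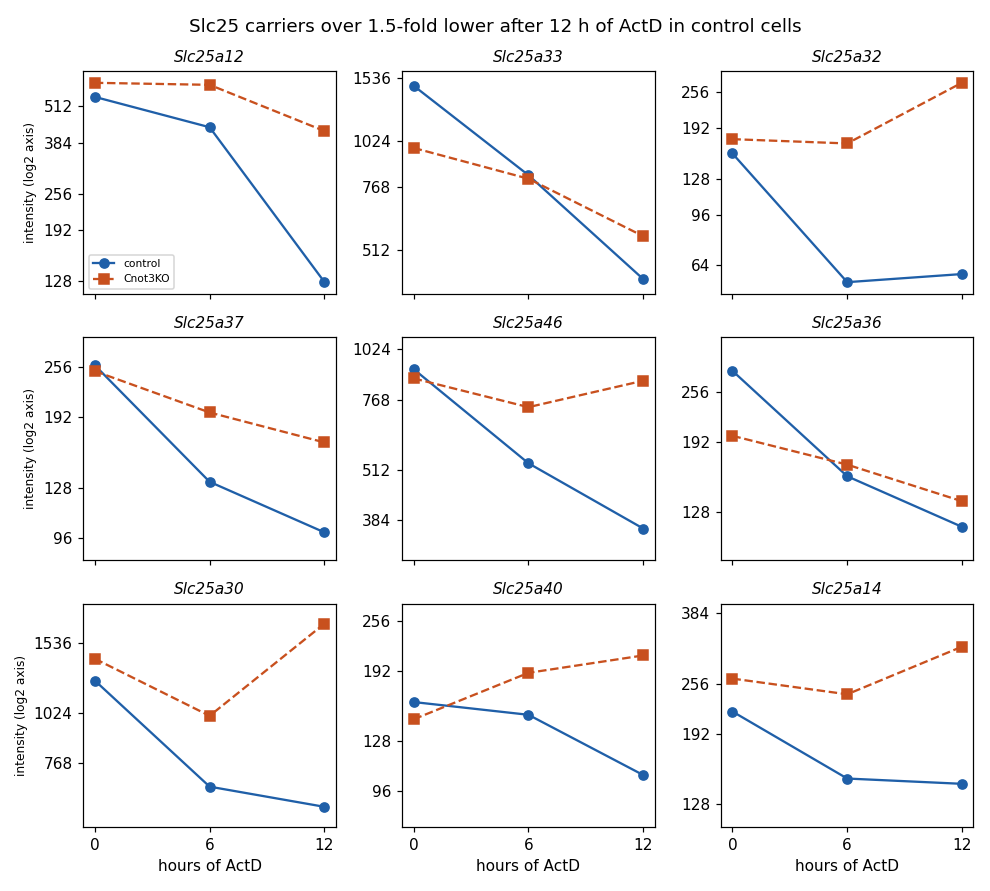
Intensity of the 9 carriers that were over 1.5-fold lower after 12 h of ActD in control cells (log2 axis, own range in each panel) against hours of ActD in control (circles, solid) and Cnot3KO cells (squares, dashed), 1 array per point without error bars. The dashed line ends above the solid line in every panel, and only Slc25a33 and Slc25a37 end over 1.5-fold below their own 0 h value in Cnot3KO cells.

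Cofactor and nucleotide carriers made up 3 of these 9. Slc25a32, which carries folate, read 157, 55.9 and 59.7 in control and 176, 170 and 277 in Cnot3KO cells. Control values were low at both times after ActD, while no Cnot3KO value was. At 12 h 38.1% of the 0 h intensity was left in control and 157% in Cnot3KO cells, a difference in change of 2.05 ± 0.65 (SE, from the fitted slopes). Its second probe set gave 2.37. Slc25a33, a carrier of pyrimidine nucleotides, read 1460, 826 and 426 in control and 982, 807 and 560 in Cnot3KO cells. It was lower at each later time in both genotypes, with 29.2% left in control and 57.0% in Cnot3KO cells at 12 h and a difference in change of 0.97 ± 0.29 (SE). Slc25a36, its closest relative in function, read 289, 158 and 118 in control and 199, 168 and 137 in Cnot3KO cells. For this pair the Cnot3KO level was below control at 0 h, by -0.57 and -0.54, and above it at 12 h. The difference in change for Slc25a36 was 0.75, and its second, dim probe set gave 0.04.

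Slc25a12 (aralar), the aspartate/glutamate carrier known mainly from heart, muscle and brain, had the lowest share left in control cells. It read 551, 433 and 127 in control and 616, 606 and 421 in Cnot3KO cells. At 12 h 23.1% was left in control and 68.3% in Cnot3KO cells, a difference in change of 1.56 ± 0.58 (SE). Of this difference 0.32 was present at 6 h. Its other probe sets were dim and gave 0.02 and 0.04. Slc25a13, the other aspartate/glutamate carrier, went the opposite way at -0.58, with 85.4% left in control and 57.2% in Cnot3KO cells.

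Among the iron and glutathione carriers, Slc25a37 (mitoferrin 1), the iron importer of erythroid cells, read 259, 133 and 99.2 in control and 251, 198 and 166 in Cnot3KO cells. The genotypes started together and the Cnot3KO values were higher at both later times, with a difference in change of 0.79 ± 0.33 (SE). The related Slc25a28 gave 0.65 ± 0.32 (SE), with 76.7% left in control and 121% in Cnot3KO cells. Slc25a40, a glutathione carrier, read 160, 149 and 105 in control and 145, 190 and 210 in Cnot3KO cells. Its values were lower with time in control and higher with time in Cnot3KO cells, a difference in change of 1.13 ± 0.32 (SE). Its relative Slc25a39 gave -0.19 ± 0.28 (SE).

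The uncoupling protein relatives Slc25a14 and Slc25a30 and the outer membrane protein Slc25a46, which acts in mitochondrial dynamics, complete the 9. Slc25a30 read 1236, 672 and 598 in control and 1401, 1009 and 1714 in Cnot3KO cells. The difference in change was 1.34 ± 0.55 (SE), and its other bright probe sets gave 0.79 and 0.87. Slc25a14 read 218, 148 and 144 in control and 264, 241 and 317 in Cnot3KO cells, so that all Cnot3KO values lay above all control values, with a difference in change of 0.86 ± 0.37 (SE). Slc25a46 read 915, 532 and 366 in control and 867, 735 and 856 in Cnot3KO cells. At 12 h 40.0% was left in control and 98.7% in Cnot3KO cells, a difference in change of 1.30 ± 0.32 (SE), and its second bright probe set gave 1.01.

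Counting all tested carriers, the change over 12 h was over 1.5-fold more positive in Cnot3KO than in control cells for 12, the 9 above with Slc25a28, Slc25a47 and Slc25a51. This is 29.3% of the members against 22.9% of all genes, a share near the background. It was over 1.5-fold more negative for Slc25a23 and Slc25a27, 4.88% against 12.3% of all genes. Over 6 h, 4 carriers (Slc25a32, Slc25a36, Slc25a37 and Slc25a47) passed 1.5-fold in the positive direction, 9.76% against 12.4% of all genes, and 0 in the negative direction against 5.09%. All 12 had the same sign at 6 h, while of the 2 only Slc25a23 did. Both changes start from the same 0 h arrays, which favours the same sign, and the share of all genes with it was not counted. Slc25a51, which imports NAD, read 1405, 1352 and 1059 in control and 1171, 1241 and 1340 in Cnot3KO cells, a difference in change of 0.60. Its 2 other bright probe sets gave 0.08 and -0.42, so its probe sets disagree. Slc25a27, a relative of the uncoupling proteins, read 84.7, 72.0 and 115 in control and 81.0, 70.9 and 71.9 in Cnot3KO cells, apart at 12 h only. The next most negative differences in change, after Slc25a13, were those of Slc25a10, the dicarboxylate carrier, at -0.54, and of Slc25a34, which has no settled substrate, at -0.49. Slc25a34 read 60.9, 76.8 and 95.7 in control and 62.0, 68.9 and 69.5 in Cnot3KO cells, so that its genotypes started together and control was higher at both later times. The 27 carriers within 1.5-fold lay between -0.58 and 0.55 with their chosen probe sets. Slc25a26 is among them at -0.07, but its second bright probe set gave -1.05.

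**Figure D4:**
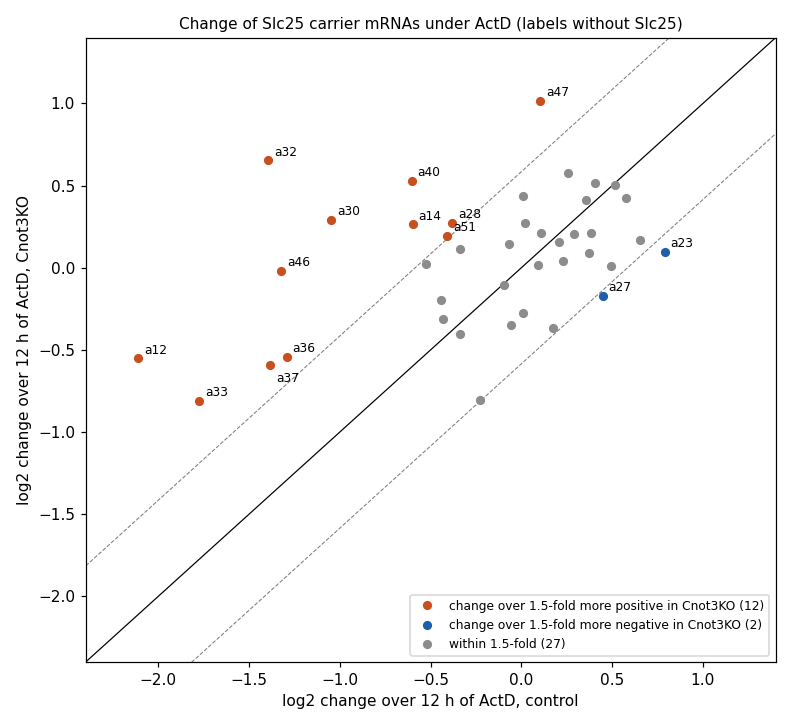
Log2 change over 12 h of ActD in Cnot3KO against that in control cells for the 41 tested carriers (1 array per genotype and time, no error bars). The solid line marks equal change and the dashed lines 1.5-fold, with 12 carriers above the upper and 2 below the lower line.

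In limma's test of the slope over the hours, no carrier differed between the genotypes at an adjusted p of 0.05, and neither did any other gene (0% of 16499 in the positive and 0% in the negative direction). The lowest adjusted p-values of the carriers were 0.189 for Slc25a46, 0.193 for Slc25a40, 0.209 for Slc25a33 and 0.221 for Slc25a32 by limma. At an unadjusted p below 0.05 the fit listed Slc25a12, Slc25a32, Slc25a33, Slc25a40 and Slc25a46 in the positive direction, 12.2% against 12.8% of all genes. It listed 0 carriers in the negative direction, against 4.95% of all genes. The fit has 2 residual degrees of freedom. It was also run on simulated data for the 16499 genes, with few genes changed and independent error. There it recovered 1% of slope differences of 1 (log2 over 12 h), 15% of those of 2 and 91% of those of 4. Recovery depends on the share of genes that change, so these values hold for that setting only.

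Carriers that share a substrate were compared as pairs, on their own differences and not on their levels. Slc25a4 and Slc25a5, the main exchangers of ADP and ATP, moved little in either genotype. Slc25a4 read 6624, 7524 and 7642 in control and 6841, 7759 and 7617 in Cnot3KO cells. Slc25a5 read 15786, 15806 and 14778 in control and 16119, 15510 and 15010 in Cnot3KO cells. Their differences in change over 12 h were -0.05 and -0.01 with the chosen probe sets, while other bright sets for Slc25a5 reached -0.86. The calcium-regulated carriers Slc25a24 and Slc25a25 both stood at -0.09 at 0 h. Slc25a24 read 6277, 6843 and 6310 in control and 5906, 5981 and 4882 in Cnot3KO cells, and Slc25a25 read 264, 220 and 268 in control and 248, 262 and 299 in Cnot3KO cells. Their differences in change were -0.28 and 0.25, less than 1.5-fold each, and a second bright probe set gave -1.15 for Slc25a24. Of the glutamate carriers, Slc25a18 lay below the array medians throughout, at 26.9, 31.2 and 37.8 in control and 25.6, 28.1 and 25.8 in Cnot3KO cells. Its difference in change of -0.48 and that of Slc25a22, 0.43, were opposite in sign. Of the ornithine carriers only Slc25a15 was tested, since Slc25a2 read 14.0 to 17.6 on all arrays.

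By role, the 12 members with a more positive change, beside a share of 22.9% of all genes, were spread as follows. The 8 tested cofactor and nucleotide carriers held 4, the 4 iron and glutathione carriers 3, the 3 uncoupling protein relatives 2, the 7 tested carriers without a settled substrate 2, and the 8 tested amino acid carriers 1. The 7 tested ATP, ADP and phosphate carriers and the 4 carriers of carboxylates and carnitine esters (Slc25a1, Slc25a10, Slc25a11 and Slc25a20) held none. Of the 2 members with a more negative change, Slc25a23 is an ATP-Mg and phosphate carrier and Slc25a27 an uncoupling protein relative. The groups are small, and no difference between roles was tested. The carrier family genes under other symbols, Ucp1, Ucp3, Mtch1 and Mtch2, were within 1.5-fold at 0 h. Mtch1 was nearest to the threshold of the genotype test among them, with a difference of -0.71 and an adjusted p of 0.0578 by limma.

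The enzymes that work with these carriers were taken from lists of genes with known functions. Of 7 urea cycle genes, Cps1, which makes carbamoyl phosphate, and Arg1, which releases urea and ornithine, were over 1.5-fold lower at 0 h. Cps1 read 4155, 2609 and 3215 in control and 1471, 973 and 651 in Cnot3KO cells, and was the only gene of this list to pass limma's genotype test, with a difference of -1.74 and an adjusted p of 0.0499. Its adjusted p was 0.0512 without the filter, 0.0577 with the stricter filter, 0.0572 centred on ribosomal protein genes and 0.371 without the 6 h arrays, so that the call was lost there. Others of this list had a positive difference that did not pass, with Nags at 1.22 and Asl at 0.42 over the 3 times (adjusted p of 0.0758 and 0.118 by limma). None of the 4 malate-aspartate shuttle enzymes, 5 carnitine shuttle genes, 8 genes of citrate export and lipogenesis, 15 of heme and iron-sulfur synthesis, 16 of the import of carriers into mitochondria or 15 other inner membrane transporters was over 1.5-fold apart at 0 h. After ActD, 4 of the 16 import genes had an over 1.5-fold more positive change in Cnot3KO cells (Timm9, Tomm70a, Timm29 and Timm10), and 0 a more negative one. This share is near the 22.9% of all genes. Of the 8 genes of citrate export and lipogenesis 4 had a more negative change (Elovl6, Me1, Acaca and Scd1), and 0 a more positive one, where all genes gave 12.3% and 22.9%.

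The same counts were made for other nuclear genes for mitochondrial proteins. Among all genes, 22.9% had an over 1.5-fold more positive change after 12 h of ActD in Cnot3KO cells and 12.3% a more negative one. Of 84 tested genes of the respiratory chain and ATP synthase, 2 (2.38%) had an over 1.5-fold more positive change after 12 h of ActD in Cnot3KO cells and 4 a more negative one. Of 76 mitochondrial ribosomal protein genes, 16 (21.1%) had a more positive change and 6 a more negative one. At 0 h, 0 of the former and 0 of the latter were over 1.5-fold lower, while 2 (2.41%) and 7 (9.21%) were higher. All genes gave 2.99% lower and 6.87% higher. Of 267 tested Slc transporters of other families 37 (13.9%) had a more positive change, and 16 were lower and 16 higher at 0 h (6.06% each). At an unadjusted p below 0.05, limma's genotype test listed 21 of the 84 respiratory chain and ATP synthase genes as lower and 2 as higher. It listed 4 of the 76 mitochondrial ribosomal protein genes as lower and 28 as higher. Of the 267 other Slc transporters 45 were listed as lower and 29 as higher. All genes gave 11.0% lower and 22.4% higher, and the carriers 17.1% and 12.2%. The difference between these counts and shares and those of the carriers was not tested.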

How the data were processed

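Fetal hepatocyte RNA from 2 genotypes at 3 times of ActD was measured on 6 Affymetrix arrays, 1 per group, with groups taken from the labels. The authors summarised probe sets by RMA (Robust Multi-array Average; version not given in the sources used here) and deposited intensities on a linear scale. Here log2 of the deposited intensity was taken before any comparison. Of 45037 probe sets 34945 named 1 gene, 932 several and 9160 none, by the platform annotation, and the RefSeq gene table held 99.1% of their gene identifiers. A gene's probe set with 1 symbol and the highest mean was used. Genes above the 20th percentile of at least 1 array compared were kept, 16499 over all arrays and 16110 at 0 h. The percentile and the 1.5-fold count at 0 h follow the authors' methods. For decay the authors counted half-lives over 2-fold longer, so the 1.5-fold count of changes after ActD is not their measure.

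Genotype (time as a block) and the genotype by hours slope were tested with limma 3.58.1 in R 4.3.3, with Benjamini-Hochberg adjustment over all genes at 0.05. The number of arrays limits the precision. Both models were tested on simulated data with few genes changed. The genotype term recovered 46%, 95% and 100% of differences of 1, 2 and 4 (log2), with 16 false calls. Alternatives changed the filter, the probe set, the centring, the variance trend and the times. The members and gene lists were chosen with earlier results of these data known. Values on all arrays are given for members over 1.5-fold apart at 0 h, the 5 with the largest difference in each direction at 0 h or in change over 12 h, and pairs sharing a substrate. Other members shown were chosen for their role, for the unadjusted test or for the change in control cells, after their values were seen.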

Additional observations from a re-analysis of the deposited data

Results flagged for a closer look

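For 4 carriers the 2 genotypes changed in opposite directions after ActD at both 6 and 12 h. Since each combination has 1 array, this difference in direction was not tested, and the share of all genes that did the same was not counted. Some of the changes were small. At 6 h Slc25a51 changed by -0.06 in control and 0.08 in Cnot3KO cells, and Slc25a44 by 0.05 in Cnot3KO cells. A second bright probe set for Slc25a51 rose by 0.24 in control at 6 h, so the opposite direction does not hold for that set. Nor does it hold for the third, which rose in both genotypes at both times. The difference in change over 12 h, Cnot3KO minus control on the log2 scale, was 1.135 for Slc25a40 (glutathione), 0.602 for Slc25a51 (NAD), 0.451 for Slc25a44, a carrier of branched-chain amino acids, and -0.536 for Slc25a10, the dicarboxylate carrier. Slc25a10 read 972, 1325 and 1095 in control and 1007, 920 and 782 in Cnot3KO cells, so that it was above its 0 h level in control and below it in Cnot3KO cells. A second bright probe set for Slc25a10 gave -0.38. Slc25a44 read 367, 317 and 290 in control and 393, 407 and 425 in Cnot3KO cells, with other bright probe sets between -0.27 and 0.19. The slope test of limma gave adjusted p-values of 0.193, 0.332, 0.42 and 0.466 for Slc25a40, Slc25a51, Slc25a44 and Slc25a10.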

How the results depend on the processing

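The count of members over 1.5-fold higher at 0 h was 0 under every alternative run, and that of lower members 3 to 4, except for 8 when arrays were centred on Gapdh, whose probe set also names pseudogenes. Members passing the genotype test as lower numbered 0 as reported, 6 with probe sets averaged per gene, 1 without probe sets of shared sequence, 5 with the second brightest probe set, 5 centred on Gapdh, 5 with a variance trend and 6 without the 0 h arrays. Those passing as higher numbered 1, 1 and 2 with the mean, the second probe set and Gapdh, and 8 without the 0 h arrays. Slc25a23 passed in 6 of 11 alternatives, Slc25a13, Slc25a16 and Slc25a20 in 5, and Slc25a28 in 4. Slc25a13, Slc25a16, Slc25a23 and Slc25a28 have only 1 probe set each. With the mean or the second probe set their differences were therefore unchanged, and only the other genes in the fit moved their adjusted p. Their passing there is not support from a further probe set. Over all genes the same test called 163 as reported and 0 with no filter, with a filter at the 50th percentile, centred on ribosomal protein genes or without the 6 h arrays. It called 63 without the 12 h arrays, 649 without probe sets of shared sequence, 1490 with the second probe set, 1625 with probe sets averaged, 2063 with a trend, 2639 centred on Gapdh and 5810 without the 0 h arrays. The calls among members thus rose where those among all genes did. The call of Cps1 was lost in the 4 alternatives with 0 calls. The slope test called 0 genes under every alternative run, with 2377 to 3107 at an unadjusted p below 0.05, and could not be fitted without the arrays of 1 time, which leaves no residual degree of freedom.

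The 12 members with an over 1.5-fold more positive change over 12 h were 8 to 12 under the other settings and 4 over 6 h. The 2 with a more negative change were 5 without probe sets of shared sequence, 6 centred on Gapdh and 0 over 6 h. The alternatives for these 2 counts were chosen after seeing the data. Gapdh centring shifted the genotype difference by 0.07 at 0 h and 0.28 at 12 h. Changes of sign were seen for Slc25a32 at 0 h, at -0.11 with the second probe set, and over the 3 times for 16 of the 41 members under at least 1 alternative. Of these, Slc25a12 (0.79 as reported, -0.07 with the second probe set) and Slc25a15 (-0.40 and 0.07) had an unadjusted p below 0.05, and none passed the adjusted threshold as reported. The positive change of Slc25a12, Slc25a36 and Slc25a51 was 0.02, 0.04 and 0.08 with the second probe set. The cause of these differences was not tested. Dim members lie near the background of the arrays, which limits their differences. No paired analysis was possible because the labels give no replicate numbers and each group is 1 array.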
